A study of Mus musculus with 12 samples.

Results

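The genes described here encode voltage-gated calcium, sodium and potassium channels, the other potassium channels, the hyperpolarisation-activated HCN channels and the accessory subunits named with them. They were taken from the array annotation by symbol, as every gene whose name starts with Cacna, Cacnb, Cacng, Kcn, Scn or Hcn (the last pair followed by a digit), other than the imprinted non-coding RNA Kcnq1ot1. The array carried 123 such genes on 255 probes. Of these, 57 genes on 76 probes were measured, meaning that a probe was above background (detection p-value under 0.05) on at least 4 of 12 arrays, among 10802 named genes measured in all. The measured share was 46.3% of channel genes on the array, compared with 56.7% of all named genes. RNA came from whole pituitary glands of C57BL/6J female mice, one gland to each bead array. The pregnant group was 8 mated dams at e15.5, and 4 virgin females made up the non-pregnant group, all allocated at 8 weeks of age from 4 litters. The litter of each animal was not given in the sources used here. All animals were wild type with no treatment, and the whole gland was taken, so anterior, intermediate and posterior lobes and blood were assayed together.

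Hormone-producing cells of the anterior pituitary fire action potentials spontaneously, and the calcium that enters through voltage-gated channels drives secretion. Sodium, T-type calcium and HCN channels bring the cell towards threshold, and potassium channels set the resting potential and end each spike or burst. Calcium-activated BK channels are known in pituitary cells for shaping the bursts during which most calcium enters.

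The pituitary hormone genes Prl, Gh, Pomc, Tshb and Lhb were detected on all 12 arrays. The median raw intensity was 151.1 to 179.6 on the pregnant arrays and 144.8 to 147.6 on the non-pregnant arrays (exact permutation p = 0.0101, two-sided, all 495 splits of the arrays). Over all probes, 17217 to 18392 were detected on a pregnant and 17789 to 18572 on a non-pregnant array (exact permutation p = 0.0323), and the part of this in the calls on dim probes was not tested. Between 66 and 76 channel probes were detected on a pregnant array and between 69 and 79 on a non-pregnant array (exact permutation p = 0.123). A single array did not sit with its own group, non-pregnant replicate 4. Over all measured probes its mean correlation was 0.9809 with the pregnant arrays and 0.9785 with the other non-pregnant arrays. Red cell genes differed strongly, with 5 of 5 higher in pregnant glands (Hba-a1, Hbb-bs, Hbb-bt, Alas2 and Slc4a1; log2 changes of 1.36 to 2.58). Their mean level, relative to the average of all arrays, was 0.14 to 1.44 on pregnant and -1.51 to -1.09 on non-pregnant arrays (log2), and its part in the channel results was not tested.

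Within the measured channel genes, 1 was higher and 6 were lower in pregnant glands in limma (adjusted p below 0.05 with a difference of 1.25-fold or more). Kcnmb4 rose, and Cacna1d (on 1 of its 3 probes), Cacna2d1, Cacna2d3, Cacng5, Kcne1l and Kcnt1 fell. The shares were 1.75% higher, 10.5% lower and 12.3% in either direction among channel genes, compared with 1.51%, 1.56% and 3.07% among all named genes measured. With detection required on all 12 arrays, 3.71% of all named genes were called. Of the 42 channel genes then measured, Kcnmb4 was called higher and Cacna2d1, Cacng5 and Kcnt1 lower. In 5 channel genes (8.77%) a probe had no overlap between the groups, compared with 4.01% of all named genes, and in 21 (36.8%) a probe had an unadjusted p under 0.05, compared with 21.8%. The group as a whole was not displaced. Its median log2 change was -0.02, with 27 positive and 30 negative values, and that of all named genes was -0.01. Both counts of calls rested on single non-pregnant arrays: 2 channel genes were called higher and 9 lower without non-pregnant replicate 4, when 8.15% of all named genes were called. Without non-pregnant replicate 3 the counts were 0 and 3, when 0.999% of all named genes were called. In a whole gland, fewer cells of a type and less RNA per cell cannot be told apart.

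**Figure D1:**
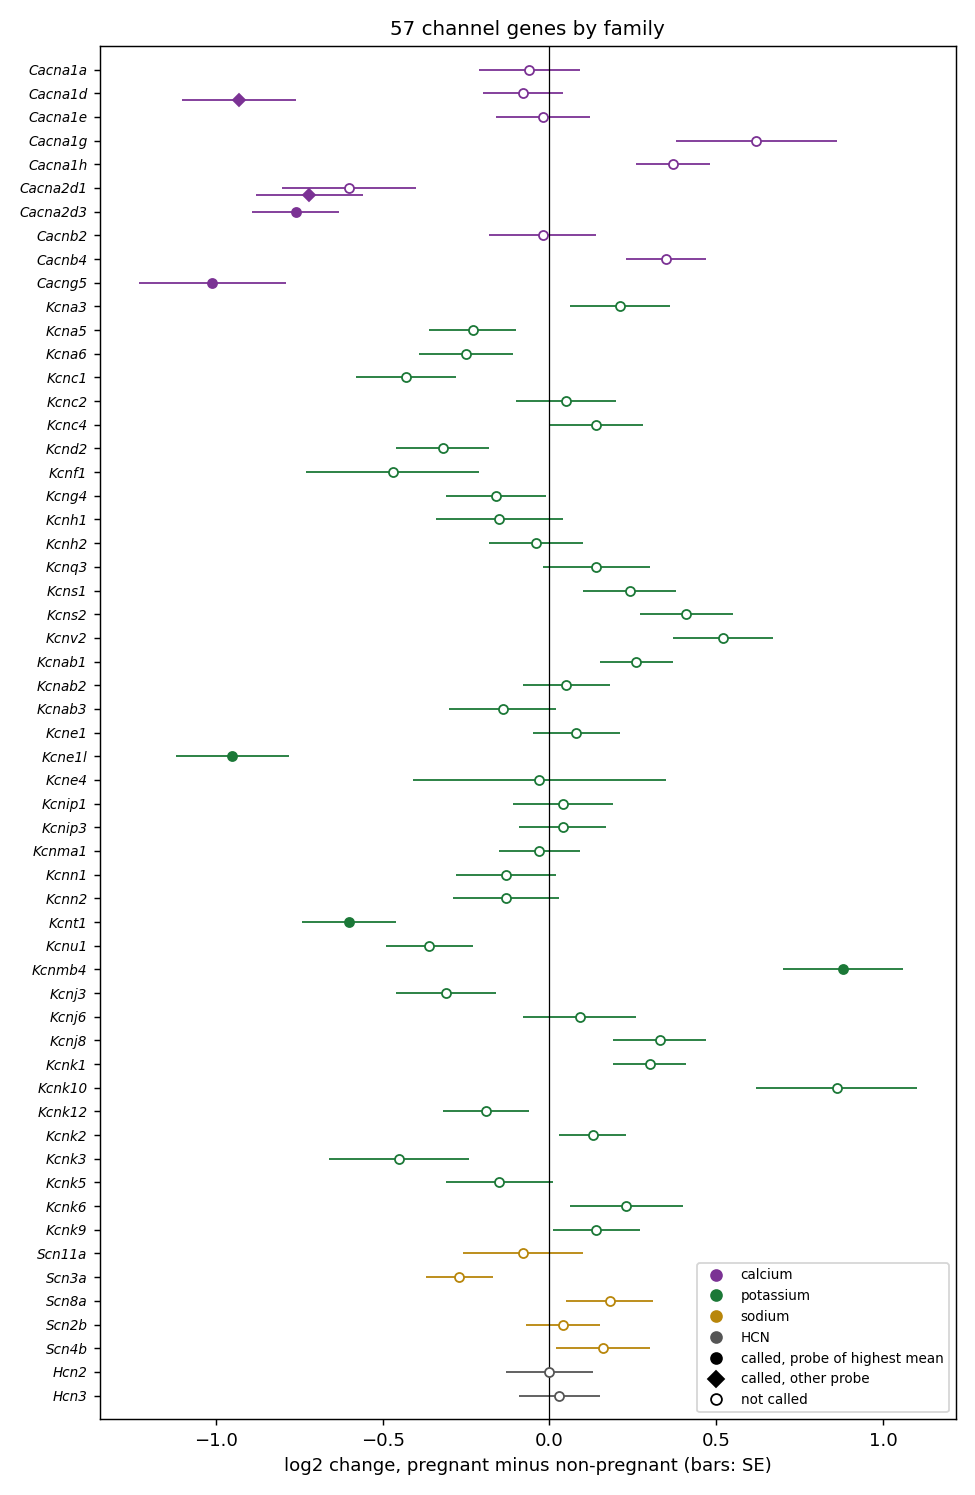
Log2 change, pregnant minus non-pregnant, of the 57 measured channel genes in order of family, each by its probe of highest mean, with bars for the SE. Filled symbols mark called probes, with diamonds for a called probe that was not the brightest of its gene. The calcium channel genes hold 4 of the 6 called lower, and Kcnmb4 is the one gene called higher.

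The sequences just upstream of 4 of these genes are shown, for 3 of the 4 calcium channel genes called lower (one each of the pore, alpha2delta and gamma families) and for the BK subunit gene Kcnmb4, which was called higher. The set of RefSeq promoters used here (GRCm38.p6) gave a start for 6 of the 7 called genes and had no entry for Kcnt1. Each sequence runs 5′ to 3′ on the gene's own strand over the 250 bases before the annotated start, at chr14:30491157-30491406 (minus strand) for Cacna1d, chr5:15934441-15934690 (plus strand) for Cacna2d1, chr11:107915056-107915305 (minus strand) for Cacng5 and chr10:116473524-116473773 (minus strand) for Kcnmb4. For Cacna1d and Cacng5, which have more than 1 annotated start, the most upstream is given. Capitals mark letters that match, on either strand, the TATA box (TATAAA), the AP-1 motif (TGANTCA), the cyclic AMP response element (TGACGTCA) or the motif of Egr factors (GCGNGGGCG). These motifs were searched over the whole window shown.
Cacna1d: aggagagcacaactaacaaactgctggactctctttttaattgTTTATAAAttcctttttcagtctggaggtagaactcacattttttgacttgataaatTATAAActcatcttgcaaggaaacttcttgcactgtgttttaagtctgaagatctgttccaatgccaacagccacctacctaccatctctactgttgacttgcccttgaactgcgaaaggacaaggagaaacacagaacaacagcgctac
Cacna2d1: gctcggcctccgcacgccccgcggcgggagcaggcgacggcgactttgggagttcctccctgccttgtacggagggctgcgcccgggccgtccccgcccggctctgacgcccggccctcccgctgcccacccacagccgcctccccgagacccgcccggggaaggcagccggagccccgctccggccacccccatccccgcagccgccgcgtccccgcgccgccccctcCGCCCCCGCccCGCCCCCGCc
Cacng5: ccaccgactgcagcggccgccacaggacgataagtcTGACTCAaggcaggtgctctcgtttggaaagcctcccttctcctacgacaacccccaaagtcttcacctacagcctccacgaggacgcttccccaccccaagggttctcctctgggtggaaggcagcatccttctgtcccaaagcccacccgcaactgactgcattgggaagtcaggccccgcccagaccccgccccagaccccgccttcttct
Kcnmb4: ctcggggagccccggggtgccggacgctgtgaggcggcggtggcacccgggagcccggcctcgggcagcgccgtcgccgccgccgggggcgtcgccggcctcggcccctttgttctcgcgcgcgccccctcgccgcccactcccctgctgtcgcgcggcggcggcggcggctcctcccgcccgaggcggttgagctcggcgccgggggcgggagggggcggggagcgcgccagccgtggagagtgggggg

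Cacna1d held TATA box letters, with overlapping matches at 207 to 200 bases before the start and another at 150 to 145. Cacna2d1 held the Egr letters at 21 to 13 and at 10 to 2 bases before the start, on the opposite strand. Cacng5 held the AP-1 letters at 214 to 208, and the Kcnmb4 sequence held none of the 4 motifs. The windows of Cacna2d3 and Kcne1l, both called lower and not shown, held none either. Nor did those before the other annotated starts of Cacna1d and Cacng5. Among 64 promoters of 41 measured channel genes, 1.56% held the TATA box letters, 6.25% the Egr letters, 4.69% the AP-1 letters and 0.0% the cyclic AMP response element. Over all 32851 annotated mouse promoters of this length the shares were 12.4%, 4.7%, 6.75% and 1.55%. The Cacna1d sequence shown was 39.6% G or C with 2 CG pairs, whereas the window before its other annotated start was 86.4% with 50 pairs. The Cacng5 sequence was 62.0% with 12 pairs, that of Cacna2d1 82.4% with 36 and that of Kcnmb4 83.6% with 43. The median was 60.4% for promoters of measured channel genes and 52.4% for all promoters. The arrays do not show which start was in use, and a match of letters is a description only.

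Calcium channel genes held most of the lower calls. Of 23 on the array 10 were measured, and 4 of these (40.0%) were called, all lower in pregnant glands. Of all named genes 1.56% were called lower. Both shares count a gene when any of its probes was called. On their brightest probes Cacna1d (-0.08, adjusted p = 0.783) and Cacna2d1 (-0.60, adjusted p = 0.137) were not called. With the mean of probes per gene, the calcium channel genes called lower were Cacna2d3 and Cacng5. With detection required on all 12 arrays they were Cacna2d1 and Cacng5. With each gene taken by its brightest probe, the family's median log2 change was -0.04 (range -1.01 to 0.62), close to that of all genes. The 6 uncalled genes lay on both sides of 0. Cacna1d entered this median at -0.08 and not at the -0.93 of its called probe. The mean level of the 10 genes, relative to the average of all arrays, was -0.10 to 0.06 on pregnant and 0.02 to 0.23 on non-pregnant arrays, and these ranges overlapped.

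The alpha2delta subunits, which sit outside the membrane and raise the number of high-voltage-activated channels at the surface, were measured for 2 of 3 genes, and both fell. Cacna2d3 had log2 normalised intensities of 5.55 to 6.23 (median 5.84) on the pregnant arrays and of 6.69, 6.55, 6.76 and 6.59 on the non-pregnant arrays. Every pregnant value lay under every non-pregnant one, and the probe was above background on 4 of 8 pregnant and 4 of 4 non-pregnant arrays. The difference was -0.76 ± 0.13 (SE) on the log2 scale, or 1.70-fold lower (adjusted p = 0.00723). This call held when any single array was left out. Without background correction the same probe differed by -0.30, which is short of 1.25-fold.

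Cacna2d1, whose product binds the drug gabapentin, was measured by 3 probes annotated to different transcript records. The called probe had 9.80 to 10.22 (median 10.04) in pregnant glands and 10.72, 11.42, 10.58 and 10.26 in non-pregnant glands. Its groups did not overlap, although the lowest non-pregnant value, from replicate 4, was only just above the highest pregnant one. The log2 difference was -0.72 ± 0.16 (1.65-fold lower, adjusted p = 0.0319). On the brightest probe the means were 10.49 ± 0.36 in the 8 pregnant and 11.09 ± 0.41 in the 4 non-pregnant glands (SD), a change of -0.60 ± 0.20 that was not called (limma adjusted p = 0.137). The dimmest probe gave -0.22 ± 0.16 (adjusted p = 0.541). The call of Cacna2d1 ended when any of pregnant replicates 4, 6, 7 and 8 or non-pregnant replicates 1, 2 and 3 was left out (highest adjusted p = 0.0916).

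Cacna1d encodes the pore of an L-type channel that opens at relatively negative voltages and supports spontaneous firing. Its 3 probes disagreed, although the annotation ties them to a single transcript record. The called probe had 5.58 to 6.26 (median 5.69) in pregnant glands and 6.84, 7.03, 6.91 and 6.23 in non-pregnant glands. The groups overlapped at non-pregnant replicate 4 alone, and 7 of 8 pregnant values lay under all non-pregnant ones. The log2 difference was -0.93 ± 0.17 (1.90-fold lower, adjusted p = 0.00826). That probe was above background on 3 of 8 pregnant and 4 of 4 non-pregnant arrays, so the non-pregnant arrays alone, and not the pregnant ones, would have met the detection minimum. The size of the fall is thus uncertain, and it was -0.37 with no background correction. The brightest probe averaged 6.37 ± 0.22 in the 8 pregnant and 6.46 ± 0.14 in the 4 non-pregnant glands (SD), and the third 5.92 ± 0.44 and 5.92 ± 0.51 in the same order. Their log2 changes were -0.08 ± 0.12 and -0.00 ± 0.24 (adjusted p = 0.783 and 0.999), so a fall of Cacna1d RNA was seen through 1 of its 3 probes.

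**Figure D2:**
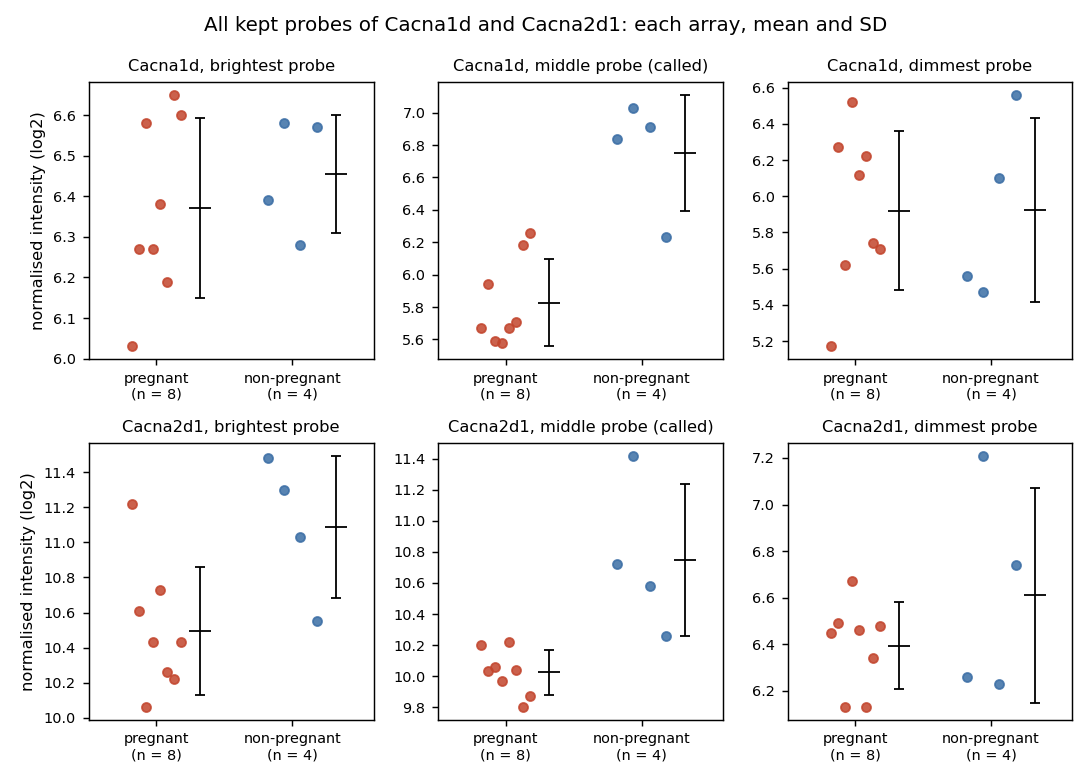
Log2 normalised intensity on each array for the 3 measured probes of Cacna1d (top row) and of Cacna2d1 (bottom row), pregnant arrays left and non-pregnant arrays right, with the mean and SD. The middle panel of each row is the called probe. For Cacna1d the other panels show groups of about equal mean, and for Cacna2d1 the brightest probe shifts the same way with overlap.

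Cacng5 is named as a calcium channel gamma subunit, and its product is known as a member of the TARP family that modulates AMPA-type glutamate receptors. It was the one measured gene of 8 in the gamma family. Values were 6.55 to 7.61 (median 7.00) in pregnant glands and 8.71, 8.00, 8.05 and 7.40 in non-pregnant glands. Only pregnant replicate 1, at 7.61, exceeded a non-pregnant value. The log2 difference was -1.01 ± 0.22, or 2.01-fold lower (adjusted p = 0.0247), the largest change of any channel gene by its brightest probe. Leaving out non-pregnant replicate 1, 2 or 3 ended the call (adjusted p up to 0.101). A second Cacng5 probe, detected on 0 pregnant and 3 non-pregnant arrays, missed the detection minimum and was not used.

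The remaining calcium channel genes were not called. The T-type pore genes had the largest positive values. Cacna1h had 9.44 to 9.87 (median 9.72) in pregnant glands and 9.46, 9.38, 9.30 and 9.11 in non-pregnant glands, with 7 of 8 pregnant values above all non-pregnant ones (log2 change 0.37 ± 0.11, adjusted p = 0.0828). Cacna1g had 7.77 to 8.61 (median 8.22) in pregnant glands and 7.12, 7.47, 7.18 and 8.75 in non-pregnant glands. Non-pregnant replicate 4 held the highest value of all arrays, and the other non-pregnant values lay under every pregnant one. The change was 0.62 ± 0.24 (adjusted p = 0.208) over all arrays and 0.99 without that array (adjusted p = 0.00299). A dimmer Cacna1g probe gave -0.04 ± 0.32. For the beta subunit gene Cacnb4, which aids channel trafficking, the brighter probe gave 0.35 ± 0.12 (adjusted p = 0.161) and the other -0.19 ± 0.13. Cacna1a, the P/Q-type pore gene, was at the detection limit (2 of 8 pregnant and 2 of 4 non-pregnant arrays) with a change of -0.06 ± 0.15. The N-type gene Cacna1b and the L-type gene Cacna1c were detected on 0 arrays, where these probes cannot show a difference.

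Potassium channel genes made up most of the set, with 40 measured of 87 on the array. A single one, Kcnmb4, was called higher and 2, Kcne1l and Kcnt1, were called lower. The share in either direction was 7.5%, compared with 3.07% of all named genes. The median log2 change was 0.00, with 20 positive and 20 negative values. No call fell among the 15 measured pore genes of the voltage-gated family, the 8 of the tandem-pore (K2P) family or the 3 inward rectifiers. With 3.07% of all named genes called, 0 calls in sets this small cannot be told from that share.

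Kcnmb4 encodes a beta subunit that slows and reshapes BK channel gating and is known from neurons and endocrine cells. On the brighter of its 2 probes the values were 8.79 to 9.94 (median 9.46) in pregnant glands and 8.49, 8.45, 8.43 and 8.71 in non-pregnant glands. All 8 pregnant values lay above all 4 non-pregnant ones. The log2 difference was 0.88 ± 0.18 (1.84-fold higher, adjusted p = 0.0205). The dimmer probe had 7.42 to 8.52 (median 8.03) in pregnant glands and 7.18, 7.36, 6.70 and 7.13 in non-pregnant glands, again with no overlap (0.89 ± 0.18, 1.86-fold, adjusted p = 0.016). Of the 4 called genes with more than 1 measured probe, Kcnmb4 was the one with every probe called. The call ended only when non-pregnant replicate 3 was left out (adjusted p = 0.0832 on the brighter probe). Without non-pregnant replicate 1 or 2 it stood on the dimmer probe alone.

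The BK pore gene Kcnma1 was not called. It averaged 8.19 ± 0.19 in the 8 pregnant and 8.21 ± 0.18 in the 4 non-pregnant glands (SD), a log2 change of -0.03 ± 0.12 (limma adjusted p = 0.928), and its second probe gave -0.10 ± 0.14. Kcnmb4 was measured alone among the 3 BK accessory genes on the array, as Kcnmb1 was detected on 0 arrays and Kcnmb2 on 1. The antisense gene Kcnmb4os1 was likewise detected on 0 arrays.

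**Figure D3:**
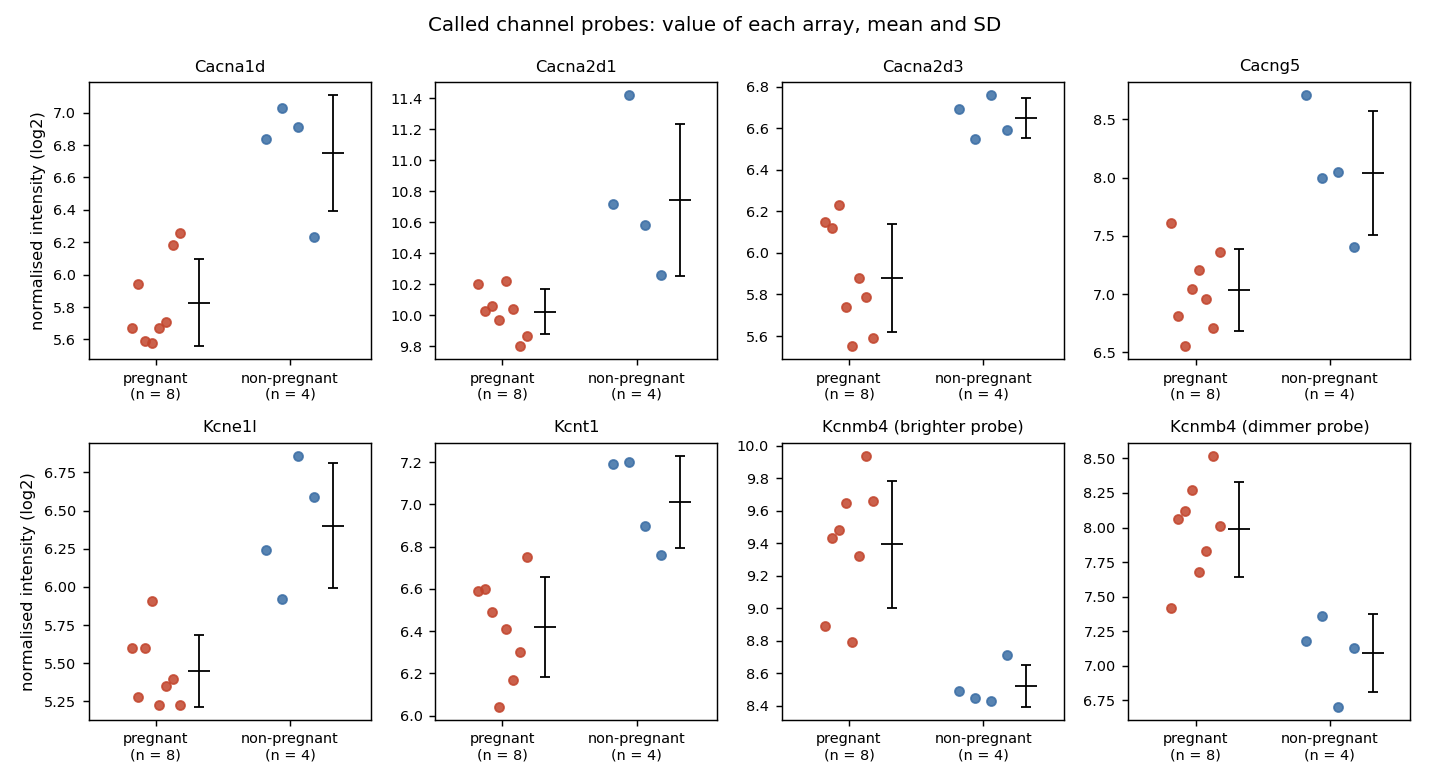
Log2 normalised intensity of the 8 called probes of 7 channel genes on each array, pregnant (n = 8) left and non-pregnant (n = 4) right, with the mean and SD. Axes differ between panels and do not start at 0. Pregnant values lie above all non-pregnant ones on both Kcnmb4 probes and below them on Cacna2d1, Cacna2d3, Kcne1l and Kcnt1, and the groups overlap on Cacna1d and Cacng5.

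Kcnt1 encodes a potassium channel opened by intracellular sodium. It had 6.04 to 6.75 (median 6.45) in pregnant glands and 7.19, 7.20, 6.90 and 6.76 in non-pregnant glands. The groups did not overlap, by a margin of pregnant replicate 8 at 6.75 to non-pregnant replicate 4 at 6.76. The log2 difference was -0.60 ± 0.14 (1.51-fold lower, adjusted p = 0.0337). A second, dimmer probe gave -0.58 ± 0.15 and just missed the threshold (adjusted p = 0.0523), with 7 of 8 pregnant values below all non-pregnant ones. That dimmer probe was above background on 2 of 8 pregnant and 4 of 4 non-pregnant arrays. The non-pregnant arrays alone would have met the detection minimum, so the size of its difference is uncertain. On the called probe the difference was -0.27 without background correction and -0.28 in the authors' processed table, both short of 1.25-fold. These settings gave near-equal changes for all channel genes named here, so they are not separate checks. The call ended without any of pregnant replicates 5, 6 and 7 or non-pregnant replicates 1, 2 and 3 (adjusted p up to 0.125). All 5 measured genes grouped by symbol as calcium- and sodium-activated pores had negative values (median -0.13). Of these, the small-conductance calcium-activated channel genes Kcnn1 and Kcnn2, and Kcnma1, were within their error of 0. Kcnu1, a relative of the BK pore gene known from sperm, gave -0.36 ± 0.13 (adjusted p = 0.176).

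Kcne1l, also called Kcne5, encodes a small membrane protein of the KCNE family that modifies voltage-gated potassium channels. Its values were 5.23 to 5.91 (median 5.38) in pregnant glands and 6.24, 5.92, 6.86 and 6.59 in non-pregnant glands. The groups did not overlap, but only 1 of 8 pregnant arrays was above background, and the 4 non-pregnant arrays alone would have met the detection minimum. The log2 difference was -0.95 ± 0.17 (1.94-fold lower, adjusted p = 0.00749). Since it was taken against a group mostly not above background, its size is uncertain, and with no background correction it was -0.37. The gene could not enter the test with detection required on all 12 arrays.

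Among uncalled potassium channel genes, Kcnk10 came closest. It encodes a K2P leak channel opened by stretch and lipids. Values were 5.90 to 7.61 (median 6.87) in pregnant glands and 5.74, 6.01, 5.87 and 5.84 in non-pregnant glands. Of 8 pregnant values 7 lay above all non-pregnant ones, and pregnant values spread widely (SD 0.53, against 0.11 in non-pregnant glands). The probe was above background on 7 of 8 pregnant and 3 of 4 non-pregnant arrays, so the pregnant arrays alone would have met the detection minimum. The size of the difference and the small non-pregnant spread are thus uncertain. The change was 0.86 ± 0.24 (adjusted p = 0.0682), and 0.36 with no background correction. Its relative Kcnk2 gave 0.13 ± 0.10 (adjusted p = 0.547), Kcnk1 gave 0.30 ± 0.11 (adjusted p = 0.174) and 0.27 ± 0.10 on a second probe, and the acid-sensitive channel gene Kcnk3 gave -0.45 ± 0.21 (adjusted p = 0.287). No direction was shared across the K2P genes, with 5 positive and 3 negative values.

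Kcnv2, an electrically silent subunit that modifies other voltage-gated channels, had 8.12 to 8.74 (median 8.52) in pregnant glands and 7.79, 8.39, 7.85 and 7.76 in non-pregnant glands. Non-pregnant replicate 2 alone lay within the pregnant range. The change was 0.52 ± 0.15 (adjusted p = 0.0777), and it was called when either that array or pregnant replicate 1 was left out. Kcns2, another silent subunit gene, gave 0.41 ± 0.14 (adjusted p = 0.139). Negative values came from Kcnc1, which supports fast spiking (-0.43 ± 0.15, adjusted p = 0.156), and from Kcnd2, an A-type channel gene (-0.32 ± 0.14, adjusted p = 0.238). The second Kcnd2 probe gave -0.54 ± 0.19 (adjusted p = 0.158). Kcnh2, an ERG channel gene that acts on resting potential in pituitary cells, averaged 10.17 ± 0.17 in the 8 pregnant and 10.20 ± 0.33 in the 4 non-pregnant glands (SD).

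Inward rectifiers were mostly below detection, with 3 of 13 genes measured. Kcnj3, which forms G protein-gated channels, gave -0.31 ± 0.15 (adjusted p = 0.3), and its partner Kcnj6, at the detection limit, gave 0.09 ± 0.17. Kcnj8, the ATP-sensitive channel pore of vascular mural cells, had 6.02 to 6.95 (median 6.50) in pregnant glands and 6.10, 6.20, 6.24 and 6.23 in non-pregnant glands, with 7 of 8 pregnant values above all non-pregnant ones (0.33 ± 0.14, adjusted p = 0.262). Abcc9, the regulatory subunit of that channel and also a pericyte marker, gave 0.51 ± 0.15 (adjusted p = 0.0803). Neither was called, and none of the 3 pericyte markers was. Kcnj11, the pore of the endocrine ATP-sensitive channel, was detected on 0 arrays.

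None of the 5 measured sodium channel genes and neither of the 2 measured HCN genes was called. These are too few to set against the 3.07% of all named genes called. The sodium channel median was 0.04 (range -0.27 to 0.18). Scn3a, a pore gene, had 8.53 to 8.82 (median 8.68) in pregnant glands and 9.17, 9.09, 8.89 and 8.67 in non-pregnant glands. Non-pregnant replicate 4 lay at the middle of the pregnant values and the other 3 lay above all of them. The change was -0.27 ± 0.10 (adjusted p = 0.191), and Scn3a was called lower when that array was left out (adjusted p = 0.0438). Scn8a gave 0.18 ± 0.13 (adjusted p = 0.521). Hcn2, a pacemaker channel gene, averaged 9.44 ± 0.18 in the 8 pregnant and 9.44 ± 0.30 in the 4 non-pregnant glands (SD), and Hcn3 gave 0.03 ± 0.12. Scn1a and Hcn4 were detected on 0 arrays.

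Of 66 channel genes that missed the detection minimum, 56 were detected on 0 arrays and 10 on 1 to 3. Just inside the minimum, on 4 arrays, were Cacna1a, Kcnj6 and 1 of 3 probes of Kcnab1. Just outside, on 3 arrays, were Cacnb1 and Kcna1 (3 pregnant and 0 non-pregnant arrays each), Kcnh3 (2 and 1), the second Cacng5 probe (0 and 3) and further probes of Kcnj6 and Scn8a (1 and 2 each). Of 32 genes known from the electrophysiology of pituitary cells, 27 were on the array, 17 were measured and 2 of these, Cacna1d and Kcnmb4, were called. Over all named genes the called share was 3.07%.

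Other genes of electrical activity and calcium handling were read from the same fit. These covered pumps and exchangers, release and store-entry channels, TRP and leak channels, channel regulators and calmodulin with its kinases. Of 100 genes on the array 70 were measured, 0 were called higher and 2 (2.86%) lower, near the 3.07% of all named genes, and the median log2 change was -0.08 with 26 positive and 44 negative values. Ryr2, which releases calcium from internal stores, had 7.24 to 7.76 (median 7.51) in pregnant glands and 8.36, 7.96, 8.44 and 8.27 in non-pregnant glands. Atp2b2, which pumps calcium out across the plasma membrane, had 7.26 to 7.85 (median 7.68) in pregnant glands and 8.10, 8.41, 8.26 and 8.07 in non-pregnant glands. Neither gene had overlapping groups, and the log2 changes were -0.77 ± 0.13 for Ryr2 (1.71-fold lower, adjusted p = 0.00474) and -0.60 ± 0.13 for Atp2b2 (1.51-fold lower, adjusted p = 0.0249). Nothing was called among 8 calcium channel regulators, 7 potassium channel regulators and 5 sodium channel regulators, sets too small to differ from the 3.07% share.

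Several called channel genes are known from neurons, so markers of other cells were read beside them. Of 6 neuronal and axonal markers 3 were measured (Nefm, Avp and Oxt) and none was called, with log2 changes of -0.48 to -0.08. The mean level of the 3 lay between -0.37 and 0.23 on pregnant arrays and between -0.06 and 0.44 on non-pregnant ones. For pituicytes and glia, 3 of 5 were measured (Aqp4, Slc1a3 and Rax) and none was called, with level ranges of -0.56 to 0.32 and -0.15 to 0.41 in the same order. Snap25, Nefl, Tubb3, Gfap and Col25a1 missed the detection minimum. Among hormone-cell markers only Lhb, the luteinising hormone subunit of gonadotrophs, was called (-0.91 ± 0.11, adjusted p = 0.000513), and 3 of 4 gonadotroph markers were not. Fshb, the follicle-stimulating hormone subunit of the same cells, had an uncalled value of opposite sign, at 1.61 ± 0.48 (adjusted p = 0.0945). The mean level of the 4, in which these opposed values partly cancel, was -0.20 to 0.20 on pregnant and -0.48 to 0.13 on non-pregnant arrays. The part of these markers in the channel results was not tested.

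**Figure D4:**
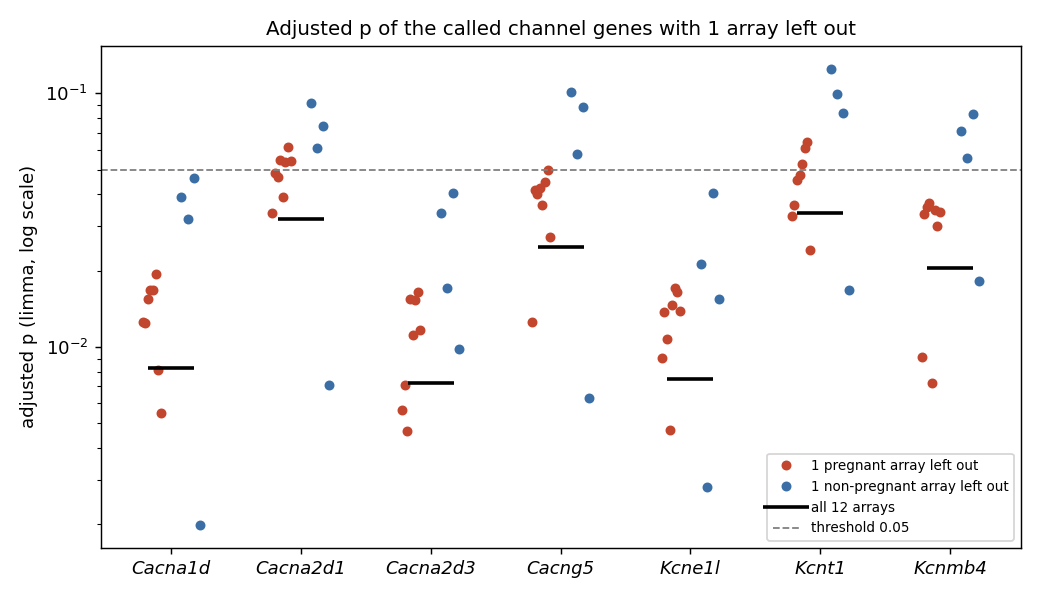
Adjusted p (limma, log scale) of each called channel gene with a single array left out, for 1 of 8 pregnant or 1 of 4 non-pregnant arrays, the black bar being all 12 arrays and the dashed line the threshold of 0.05. Each gene is shown by its called probe, and Kcnmb4 by its brighter one. Cacna1d, Cacna2d3 and Kcne1l stay under the line throughout, and the other 4 cross it.

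Of the 7 calls, 3 held when any single array was left out, those of Cacna1d, Cacna2d3 and Kcne1l. All 3 rest on probes that were above background on 1 to 4 of 8 pregnant arrays. Cacng5 kept its call in 9 of 12 such repeats, Kcnmb4 in 11, Kcnt1 in 6 and Cacna2d1 in 5. The plot of adjusted p with an array left out shows lower values without non-pregnant replicate 4 for 5 of the 7 genes, Cacna2d3 and Kcne1l being the exceptions. On 5 of the 8 called probes this array was the non-pregnant one nearest the pregnant values.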

How the data were processed

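Total RNA of 12 whole pituitaries was hybridised to Illumina MouseWG-6 v2.0 bead arrays. The authors deposited linear signal intensities that were not normalised, with a detection p-value (the scanner software's test against negative controls) for each of 45281 probes. Processed intensities, made by the authors with lumi, served as an alternative.

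Background was corrected by normexp (negative controls inferred from detection p, offset 16), followed by quantile normalisation and log2, in limma 3.58.1 (R 4.3.3). The 18626 probes detected on at least 4 of 12 arrays were compared two-sided with lmFit and eBayes, with Benjamini-Hochberg adjustment over them all. A gene was called when any of its probes was, and the probe of highest mean represents it. Log2 changes are pregnant minus non-pregnant.

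Genes named are those called, the 6 uncalled with the smallest p in each direction and measured genes of a list from pituitary electrophysiology. The genes, lists and tests were chosen with earlier results of these data known. Symbols of all 255 channel probes were unchanged in RefSeq (GRCm38.p6). No source used here gives the BeadChip of an array, so batch was not tested, and animals were treated as independent. Precision is limited by the number of arrays. The procedure was tested on simulated data. Alternatives covered background, scaling, source table, filter, variance model, array weights, probe choice, fold threshold, single arrays left out and a replicate block.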

Additional observations from a re-analysis of the deposited data

Results flagged for a closer look

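Kcnv2 was the one value set among 66 examined (each named channel probe in each group) with an array far from the rest of its group. Non-pregnant replicate 2 had a log2 intensity of 8.39, and the nearest of the other 3 non-pregnant arrays had 7.85, so that 0.853 of the group's range lay in this gap. By chance about 1 in 20 such sets would be picked out.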

How the results depend on the processing

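Changing the background correction, scaling, source table, probe summary or fold threshold left 1 channel gene called higher and 4 to 6 lower. The authors' table and the fit without background correction called the same channel genes with near-equal changes, so they are not separate checks. The count of lower calls was 3 with detection required on all 12 arrays (42 genes measured), 4 with no detection filter and 2, Cacna1d and Cacng5, with a replicate block. The block fit compared arrays of the same number. Pregnant replicates 5 to 8 have no non-pregnant partner and did not bear on its log2 changes, so its counts rest on fewer arrays. Higher calls numbered 2 with a trended and robust variance model (6 lower) and 7 with array weights (8 lower), where 11.0% of all named genes were called and the sodium channel median was 0.13. Deviations of same-numbered arrays correlated weakly (0.014 to 0.203), and non-pregnant replicate 4 alone correlated best with its own number. Correlations this weak cannot decide whether equal numbers mark shared litters or BeadChips. In the block fit 0.861% of all named genes were called. With 1 array left out, higher calls ranged from 0 to 2 and lower calls from 3 to 9, and the medians ranged from -0.09 to 0.02 (potassium) and -0.01 to 0.12 (sodium). Signs turned only for genes near 0: Cacna1d on its brightest probe was 0.02 with array weights, and Kcnh2 was 0.07 with the replicate block. With 1 array left out, log2 changes were -0.17 to 0.01 for Cacna1a, -0.09 to 0.14 for Hcn2, -0.08 to 0.10 for Hcn3, -0.15 to 0.11 for Kcnh2, -0.10 to 0.05 for Kcnma1, -0.27 to 0.03 for Kcnn2 and -0.00 to 0.16 for Kcnj6. The cause of these shifts was not tested. Without background correction the log2 changes of called probes were smaller: -0.37 for Kcne1l, -0.30 for Cacna2d3, -0.37 for Cacna1d, -0.27 for Kcnt1 and -0.60 for Cacng5. Those of Cacna2d3 and Kcnt1 lost their call there.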

Other observations

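Cacna2d3 and Cacna1d, each called lower in pregnant glands (Cacna1d on 1 of its 3 probes only), lie close together on mouse chromosome 14, with 4 protein-coding genes between them in the RefSeq order. This was noticed after their values were seen. Of the genes between, 3 were measured and none was called: Selenok gave a log2 change of 0.21 ± 0.13, Actr8 of -0.17 ± 0.19 and Chdh of -0.31 ± 0.17 (limma adjusted p = 0.421, 0.718 and 0.362). Dcp1a, which overlaps the upstream end of Cacna1d, gave -0.06 ± 0.11, 0.04 ± 0.11 and -0.16 ± 0.15 on its 3 kept probes, none of them called.

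Channel partners that fell just short of the call included Rrad, an inhibitor of L-type calcium channels, at -0.72 ± 0.19 (adjusted p = 0.0591), and Camk4, a calcium and calmodulin-dependent kinase, at -0.60 ± 0.16 (adjusted p = 0.0659). The Camk4 probe was above background on 3 of 8 pregnant and 4 of 4 non-pregnant arrays, so the size of its difference is uncertain. Fgf13, an intracellular partner of sodium channels, was 10.19 to 10.71 (median 10.33) in pregnant glands and 9.97, 9.83, 10.06 and 10.09 in non-pregnant glands. Its groups did not overlap, and the change was 0.39 ± 0.11 (adjusted p = 0.0724). The stem cell markers Sox2 and Sox9 gave -0.37 ± 0.14 and -0.41 ± 0.11 (adjusted p = 0.186 and 0.0703).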
